A study of Mus musculus with 9 samples.

Results

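Snai1, Snai2, Zeb1 and Zeb2 encode the zinc finger repressors best known for driving epithelial-mesenchymal transition (EMT), and their transcripts were followed here in myogenic progenitor cells and their neighbours in the mouse forelimb bud. The 4 genes were taken by name from the 18193 genes that could be assigned to a probe set. A probe set, the group of probes that reports 1 transcript on the array, was counted for a gene only where its annotation gave that single gene symbol. This left 12 probe sets of 45037, with 1 for Snai1, 2 for Snai2, 4 for Zeb1 and 5 for Zeb2. For each gene the probe set with the highest mean over the 9 arrays was taken as its main probe set and the others served as a check.

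The samples were forelimb bud cells of mouse embryos at E10.5, sorted by flow cytometry on the fluorescence of a GFP coding sequence placed in the Pax3 gene, and 3 arrays were made for each of 3 groups. Control GFP+ cells came from Pax3GFP/+ embryos, which keep 1 working Pax3 allele. PAX3-FKHR GFP+ cells came from Pax3PAX3-FKHR/GFP embryos, in which the second Pax3 allele encodes PAX3-FKHR, the DNA binding part of PAX3 joined to the strong activation domain of FKHR, so that by genotype these embryos carry no wild-type Pax3 allele. That allele was conditional and had been recombined with a PGK-Cre transgene, which acts in all tissues, and the fusion is expressed wherever Pax3 is. GFP- cells were the fraction without fluorescence. Their genotype is not stated in the sample labels. The study's results and statistical methods name Pax3GFP/+ embryos as their source. Its array methods list Pax3+/+ among the experimental groups, without saying that GFP- cells came from such embryos. Embryos were pooled by genotype, so an array stands for a pool of sorted cells and not for 1 animal, and the p-values measure the spread between such pools. The comparison of the 2 GFP+ groups addressed which transcripts follow PAX3-FKHR, and the comparison with GFP- cells addressed which transcripts mark the Pax3 positive cells.

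Factors of the Snail family (Snai1, Snai2) and the Zeb family (Zeb1, Zeb2) bind the E-box motif CACCTG, which reads CAGGTG on the opposite strand, and repress genes of cell junctions such as Cdh1, which encodes E-cadherin. Cells in which they act lose epithelial contacts and become motile, as in gastrulation, in the emigration of neural crest and in carcinoma. Limb muscle progenitors leave the epithelial dermomyotome of the somite in a delamination of this kind and migrate into the limb bud as mesenchymal cells.

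The motif itself was read from RefSeq promoter windows (GRCm38.p6), each of 300 bases with 250 before and 50 after the transcription start. Snai1 is known to bind its own promoter, and Cldn7 and Krt18 are shown because they encode an epithelial claudin and a simple-epithelium keratin whose values are given further on. Each line below is written 5′ to 3′ on the strand of the gene, with the E-box in capitals.
Snai1, chr2:167538057-167538086, plus strand: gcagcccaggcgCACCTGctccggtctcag
Cldn7, chr11:69965312-69965341, plus strand: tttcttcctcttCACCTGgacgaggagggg
Cldn7, chr11:69965352-69965381, plus strand: agacttccggttCAGGTGagtgtcccttca
Krt18, chr15:102027990-102028019, plus strand: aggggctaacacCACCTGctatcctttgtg

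Relative to the transcription start, the Snai1 motif began at -126, the Cldn7 motifs at -97 and -57 and the Krt18 motif at -214. Zeb2 held the motif in 0 of its 4 windows. The windows of Snai2, Zeb1 and Cdh1 were not analysed here. Over all genes in the table, 6640 of 32851 windows (20.2%) held CACCTG or CAGGTG. In a list of epithelial junction and keratin genes it was in 19 of 23 windows (82.6%), which is 15 of the 18 listed genes that had a window. The list was written from general knowledge of epithelial genes, in which targets of these repressors are well represented, and some of its windows overlap, so this share describes the list and was not tested. Genes of mesenchymal cells held it in 1 of 16 windows and other EMT factors in 0 of 13. A match says that these letters are present and not that a factor was bound in these cells.

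All values below are log2 values from RMA, the standard summary of Affymetrix probe intensities, so a difference of 1 is a factor of 2. A difference was called when limma gave an adjusted p under 0.05 over all 45037 probe sets and the log2 fold change was at least 0.5 in size. Values of different probe sets are not compared with each other, since each has its own brightness. Pax3 was highest in control GFP+ cells, with means of 9.70 ± 0.67 in control GFP+, 7.10 ± 0.25 in PAX3-FKHR GFP+ and 5.03 ± 0.22 in GFP- cells (SD, n = 3 each). Pax3 signal in PAX3-FKHR GFP+ cells thus remained above that in GFP- cells, by 1.33 to 3.03 on its 3 probe sets, all of them called (limma adjusted p at most 0.0358), and which transcript gave it was not tested. Of 11 limb muscle progenitor markers 10 were higher in control GFP+ than in GFP- cells, and of 14 limb mesenchyme markers 12 were lower. Control GFP+ replicate 3 fitted its group least well, with the lowest array weight of 0.236 against up to 2.69 for the others. With whole populations measured, fewer cells of a type and less RNA per cell cannot be told apart.

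Zeb2 and Zeb1 were higher in both GFP+ groups than in GFP- cells, while Snai1 and Snai2 passed the test in no comparison. Zeb2, also known as Sip1, showed the largest difference of the 4 genes. On its main probe set (1422748_at) the control GFP+ arrays gave 7.69, 7.35 and 7.69. The PAX3-FKHR GFP+ arrays gave 7.71, 8.28 and 7.72. The GFP- arrays gave 4.59, 5.39 and 6.10. Every GFP+ array lay above every GFP- array, and the GFP- arrays were spread over a wider range than either GFP+ group. Zeb2 rose by 2.22 ± 0.33 (SE) from GFP- to control GFP+ cells, a 4.65-fold difference with a limma adjusted p of 0.0037. Between GFP- and PAX3-FKHR GFP+ cells it rose by 2.55 ± 0.33, a 5.84-fold difference with a limma adjusted p of 0.0012. Both comparisons use the same GFP- arrays. On leaving out each array in turn the first difference ranged from 1.83 to 2.59 and the second from 2.16 to 2.92, and each stayed called.

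The 4 other probe sets of Zeb2 were dimmer, with group means below the median of all values (5.11) in every group, so that the sizes of their differences are less certain. On 1456389_at the control GFP+ arrays gave 4.99, 5.54 and 3.71, the PAX3-FKHR GFP+ arrays 5.26, 5.71 and 4.34, and the GFP- arrays 3.02, 3.33 and 3.57. The 3 GFP- arrays were again the lowest. The difference from GFP- cells was 1.80 ± 0.44 for PAX3-FKHR GFP+ cells, which was called (limma adjusted p = 0.0357), and 1.44 ± 0.44 for control GFP+ cells, which was not (adjusted p = 0.0875). The call was lost without PAX3-FKHR GFP+ replicate 1 (adjusted p = 0.104) or 2 (0.147) and without GFP- replicate 1 (0.124), 2 (0.0989) or 3 (0.0642), while the difference stayed between 1.49 and 2.18. On 1434298_at the differences from GFP- cells were 1.20 ± 0.42 (adjusted p = 0.132) and 1.41 ± 0.42 (adjusted p = 0.0767) for control and PAX3-FKHR GFP+ cells. The study lists this probe set among transcripts found only in GFP+ limb cells, a choice made on these same arrays and no independent evidence. The 2 remaining probe sets, 1458941_at and 1454200_at, differed from GFP- cells by 0.02 to 0.27.

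Zeb1, the paralogue first described as a repressor of lens crystallin, differed less but with a smaller spread. On its main probe set (1418926_at) the control GFP+ arrays gave 9.88, 9.96 and 9.90. The PAX3-FKHR GFP+ arrays gave 10.03, 10.12 and 10.03. The GFP- arrays gave 8.99, 9.37 and 8.95. The 3 groups did not overlap, in the order GFP-, control GFP+ and PAX3-FKHR GFP+, although only the step above GFP- passed the test. Zeb1 rose by 0.81 ± 0.13 (SE) from GFP- to control GFP+ cells, a 1.75-fold difference (limma adjusted p = 0.0066). It rose by 0.96 ± 0.13 from GFP- to PAX3-FKHR GFP+ cells, a 1.94-fold difference (limma adjusted p = 0.0020). Without 1 array in turn these differences ranged from 0.73 to 0.94 and from 0.88 to 1.09 and stayed called.

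The other probe sets of Zeb1 did not all move alike. On 1443005_at the GFP- arrays (5.94, 6.07 and 5.68) were below all control GFP+ (6.36, 6.52 and 6.36) and all PAX3-FKHR GFP+ arrays (6.53, 6.60 and 6.40). The difference was 0.61 ± 0.14 for PAX3-FKHR GFP+ cells (limma adjusted p = 0.0269, called) and 0.52 ± 0.14 for control GFP+ cells (adjusted p = 0.0585, not called). The call was lost without PAX3-FKHR GFP+ replicate 1 (adjusted p = 0.0761), 2 (0.118) or 3 (0.0526) and without GFP- replicate 1 (0.0721) or 3 (0.0761). Another probe set, 1446127_at, went the other way, with GFP- arrays at 6.75, 6.55 and 7.63 above control GFP+ arrays at 5.88, 4.46 and 6.34. Its difference between control GFP+ and GFP- cells was -1.42 ± 0.52, which was not called (adjusted p = 0.144), so the Zeb1 probe sets disagree in direction. The dimmest, 1420243_at, stayed between 2.73 and 3.91 on all 9 arrays.

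**Figure D1:**
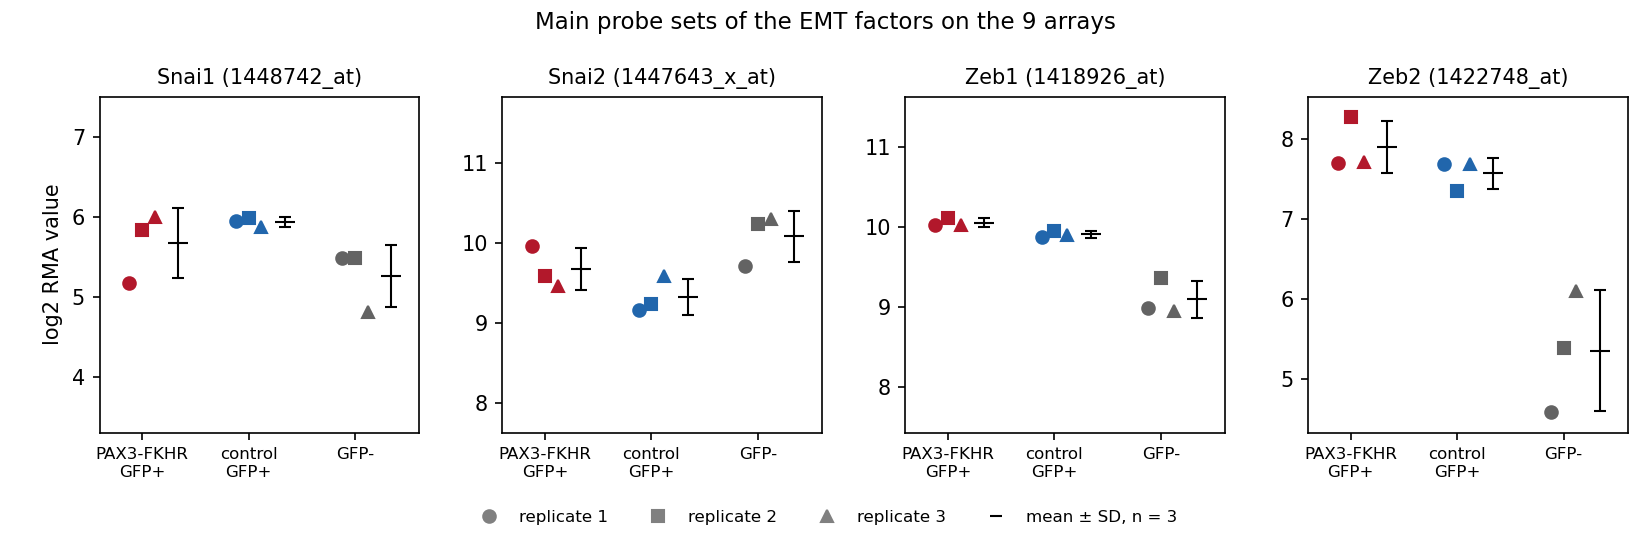
Log2 RMA values of the main probe set of each factor on the 9 arrays, with a symbol for each replicate and a bar for the mean ± SD (n = 3); all panels span the same number of log2 units. Zeb2 and Zeb1 lay higher on all 6 GFP+ arrays than on the 3 GFP- arrays, Snai2 lay lowest in control GFP+ cells on average, and Snai1 was spread most in PAX3-FKHR GFP+ and GFP- cells.

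Snai2, or Slug, which acts in emigrating neural crest, had its highest mean in GFP- cells and its lowest in control GFP+ cells, and passed the test in no comparison. Its main probe set (1447643_x_at) gave 9.72, 10.24 and 10.30 in GFP- cells. The control GFP+ arrays gave 9.17, 9.24 and 9.59. The PAX3-FKHR GFP+ arrays gave 9.97, 9.59 and 9.47. All control GFP+ arrays were below all GFP- arrays, and the PAX3-FKHR GFP+ arrays overlapped both groups. The difference between control GFP+ and GFP- cells was -0.75 ± 0.20 (SE), just short of the threshold (limma adjusted p = 0.0523). It passed without control GFP+ replicate 3 (-0.88, adjusted p = 0.0354) and without GFP- replicate 1 (-0.93, adjusted p = 0.0305). Between PAX3-FKHR GFP+ and GFP- cells the difference was -0.41 ± 0.20 (adjusted p = 0.289).

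The suffix x in the name of that probe set marks probes that may also match other transcripts. The second Snai2 probe set, 1418673_at, carries no such mark and gave 6.35, 6.71 and 7.02 in GFP- cells, 6.27, 6.09 and 6.12 in control GFP+ cells and 6.60, 6.38 and 6.58 in PAX3-FKHR GFP+ cells. The control GFP+ arrays were the lowest on this probe set too. Control GFP+ and GFP- cells differed by -0.54 ± 0.17, which was not called (limma adjusted p = 0.105).

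Snai1, or Snail, needed at gastrulation, was measured by a single probe set (1448742_at) with values not far above the median of all probe sets. The control GFP+ arrays lay close together at 5.95, 5.99 and 5.87. The PAX3-FKHR GFP+ arrays gave 5.18, 5.84 and 6.0. The GFP- arrays gave 5.49, 5.49 and 4.81. Control GFP+ cells were above all GFP- arrays, while the low PAX3-FKHR GFP+ replicate 1 made that group overlap both others. The difference between control GFP+ and GFP- cells was 0.68 ± 0.24 (SE), with a 95% interval from 0.15 to 1.20, and was not called (limma adjusted p = 0.13). Between PAX3-FKHR GFP+ and GFP- cells it was 0.41 ± 0.24 (adjusted p = 0.385).

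In control GFP+ against GFP- cells, 2 of the 4 main probe sets were thus called higher and 0 lower, beside 1.84% of all probe sets called higher and 4.01% called lower. The same 2 of 4, and 0 lower, were called for PAX3-FKHR GFP+ against GFP- cells, beside 2.8% of all probe sets called higher and 4% lower. Over all 12 probe sets of the genes these comparisons gave 2 and 4 calls higher and 0 lower. On a filter for values above the median on at least 3 arrays 8 of the 12 probe sets passed, among them all 4 main ones. Zeb2 on 1456389_at passed through 3 GFP+ arrays and 0 GFP- arrays, so that its passing depended on the groups in which it was higher. The median difference between control GFP+ and GFP- cells was 0.74 over the 4 main probe sets, of which 3 were above 0 and 1 below, 0.35 over all 12, 0.09 over the 8 others and 0.06 over all probe sets of the array.

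None of the 4 genes passed the test between PAX3-FKHR GFP+ and control GFP+ cells, where 0.395% of all probe sets were called higher and 0.142% lower. Snai2 differed by 0.34 ± 0.20 (SE), with a 95% interval from -0.10 to 0.78 (limma adjusted p = 0.771). Zeb2 differed by 0.33 ± 0.33, with an interval from -0.40 to 1.05 (adjusted p = 0.853). Zeb1 differed by 0.15 ± 0.13, with an interval from -0.15 to 0.45 (adjusted p = 0.837). Snai1 differed by -0.27 ± 0.24, with an interval from -0.79 to 0.26 (adjusted p = 0.834). The intervals of Snai1, Snai2 and Zeb2 reach past the threshold of 0.5, so changes of that size in these genes are within the range the data allow. The interval of Zeb1 does not reach it on the main probe set, nor on 1443005_at (-0.22 to 0.41). It does on 1446127_at, with a difference of 0.92 ± 0.52 and an interval from -0.22 to 2.06, and on 1420243_at (-0.20 to 0.89). A Zeb1 change of that size is thus not excluded on all its probe sets. Of the 12 probe sets 0 were called by limma, 0 had an unadjusted p under 0.05, and 0 were called by a rebuilt local pooled error test. The PAX3-FKHR and control arrays of Zeb1 and of Zeb2 did not overlap, with a gap of 0.07 for Zeb1 and of 0.02 for Zeb2. Neither did those of the second Snai2 probe set (gap 0.11, limma adjusted p = 0.735). The share of all probe sets without overlap was not counted. With 3 arrays against 3 the smallest possible exact permutation p is 0.1, so these gaps are not read as differences.

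**Figure D2:**
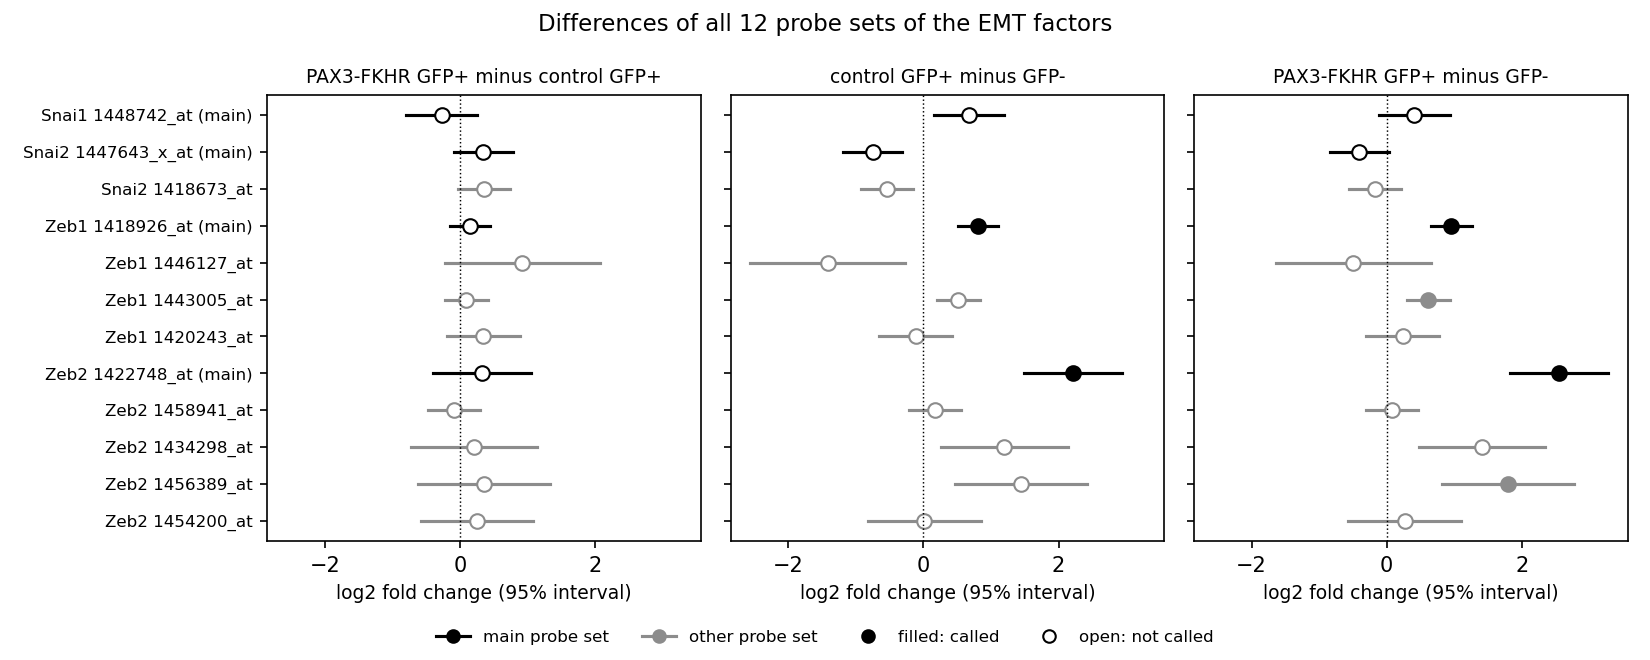
Log2 fold changes with 95% intervals from limma for the 12 probe sets (rows) in the 3 comparisons (panels), with filled circles for called differences and black for main probe sets. No probe set was called between the GFP+ groups, and the largest called differences, 2.22 and 2.55, belonged to the main probe set of Zeb2.

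Each array also gives the difference between paralogues, whose change was tested with 3 arrays against 3, for which the smallest possible exact p is 0.1. The log2 difference Zeb2 minus Zeb1 was larger by 1.41 in control GFP+ than in GFP- cells and by 1.59 in PAX3-FKHR GFP+ than in GFP- cells (exact permutation test, two-sided, p = 0.1 each). The difference Snai2 minus Snai1 changed by -1.42 from GFP- to control GFP+ cells (exact permutation p = 0.1) and by -0.81 from GFP- to PAX3-FKHR GFP+ cells (exact permutation p = 0.3). Between the GFP+ groups the changes were 0.18 for the Zeb pair (exact permutation p = 0.6) and 0.61 for the Snail pair (exact permutation p = 0.2). None of the 6 comparisons could pass a threshold of 0.05.

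The genes with the most similar pattern over the 9 arrays were found by the root mean square difference of values centred on each probe set's mean. Nearest to Zeb1 was Vim, which encodes the mesenchymal intermediate filament vimentin, at 0.115, against a median of 0.437 over all genes. Ptges3l (0.117) and Bcat1 (0.123), an enzyme of branched-chain amino acid breakdown, came next and were almost as near. The nearest of all genes lies below the median by construction, so the median only gives the scale. Nearest to Zeb2 were Cav1, which encodes the membrane coat protein caveolin-1, at 0.364, then Rbm20, a splicing factor, and Tubb2b, a beta tubulin, against a median of 1.18. Snai2 was nearest to Il17rd, an inhibitor of FGF signalling (0.145), with 1600020E01Rik and Id4 behind it. Snai1 was nearest to Zfp703, a transcriptional corepressor (0.177), with Camk2n2 and 1700018B08Rik behind it.

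Vimentin and E-cadherin are textbook markers of the mesenchymal and the epithelial state. Vim gave 10.88, 11.10 and 10.71 in control GFP+ cells, 10.82, 11 and 10.98 in PAX3-FKHR GFP+ cells and 9.96, 10.30 and 10.07 in GFP- cells. It rose by 0.79 ± 0.14 (SE) from GFP- to control GFP+ cells (limma adjusted p = 0.0078) and by 0.82 ± 0.14 to PAX3-FKHR GFP+ cells (adjusted p = 0.0048). Cdh1 gave 3.54, 3.79 and 2.54 in control GFP+ cells, 3.91, 3.42 and 3.05 in PAX3-FKHR GFP+ cells and 4.16, 5.05 and 6.09 in GFP- cells, so that the GFP- arrays were the highest but far apart. The difference between control GFP+ and GFP- cells was -1.81 ± 0.45, called at an adjusted p of 0.0425, and between PAX3-FKHR GFP+ and GFP- cells it was -1.64 ± 0.45, which was not called (adjusted p = 0.0575). Of the 9 Cdh1 values 8 lay below the median of all values, so the size of these differences is uncertain. The control GFP+ call was lost on leaving out any control GFP+ array (adjusted p = 0.0765, 0.0515 and 0.107 for replicates 1, 2 and 3) or, among GFP- arrays, replicate 2 (0.105) or 3 (0.113). Other mesenchymal markers did not follow Vim: Cdh2, which encodes N-cadherin, differed by 0.26 ± 0.25 (adjusted p = 0.581), and Fn1, which encodes fibronectin, fell by 0.78 ± 0.12 from GFP- to control GFP+ cells (adjusted p = 0.0043).

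**Figure D3:**
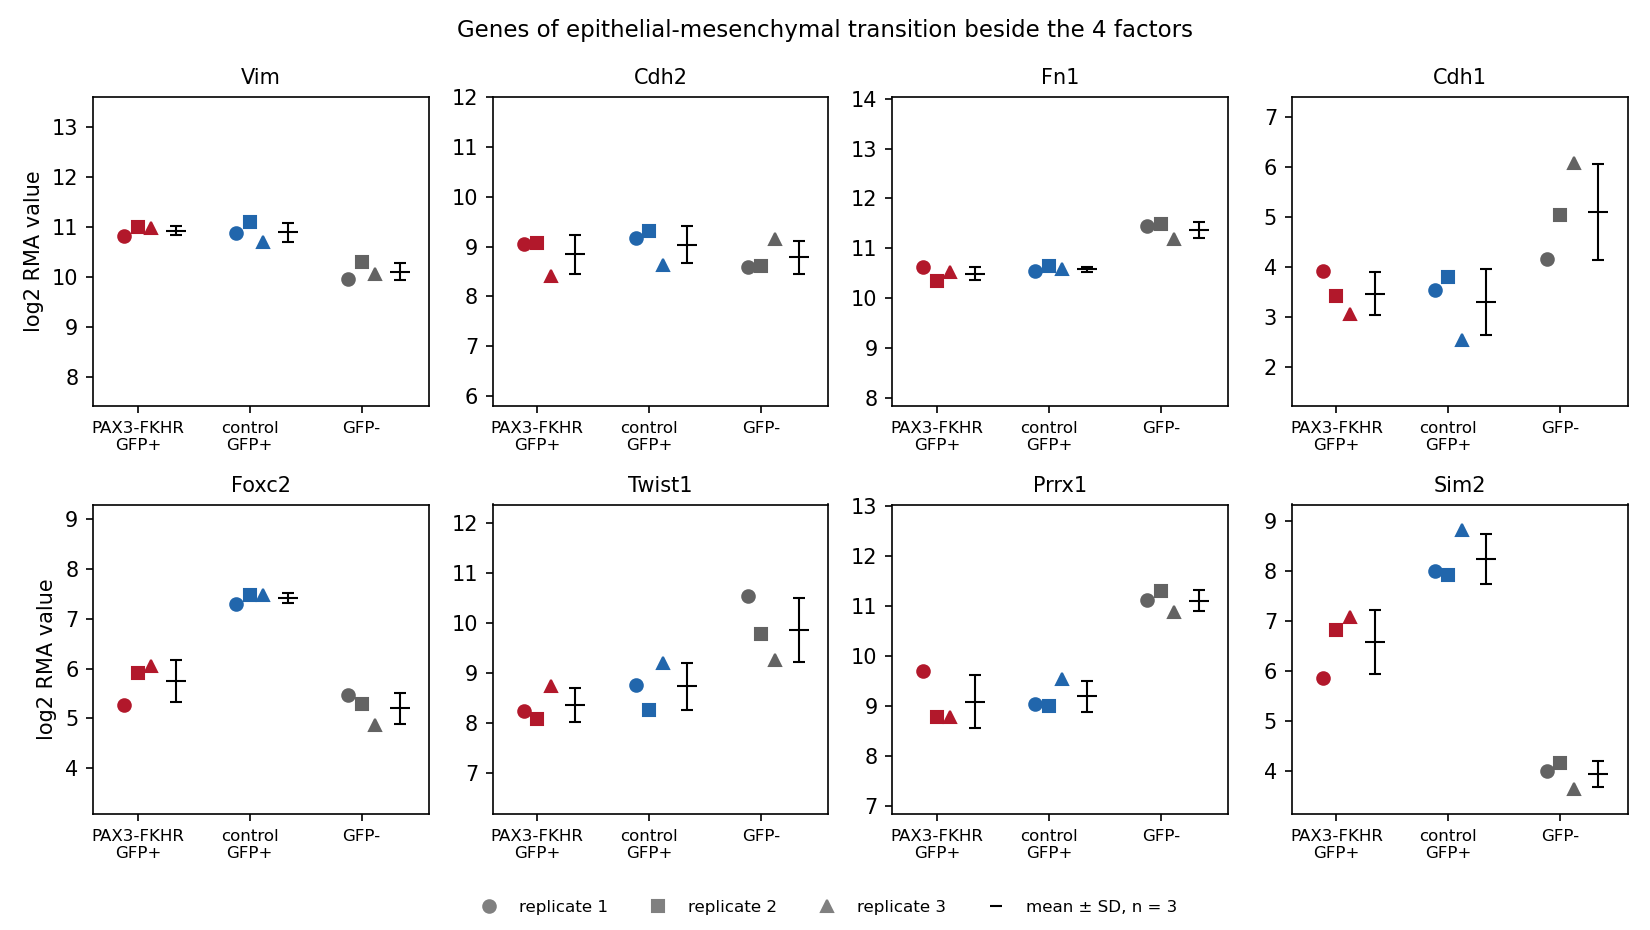
Log2 RMA values on the 9 arrays for genes that mark or drive EMT, with symbols for replicates and bars for mean ± SD (n = 3), each panel spanning the same number of log2 units. Vim was higher and Fn1, Twist1 and Prrx1 lower on the GFP+ arrays than on the GFP- arrays, with the smallest gap for Twist1 (9.19 against 9.25), and Foxc2 stood apart in control GFP+ cells.

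Of 14 other transcription factors of EMT that were measured, 1 was higher and 3 were lower in control GFP+ cells relative to GFP- cells, with a median difference of -0.47 against 0.06 over all probe sets, and 0 were higher and 5 lower in PAX3-FKHR GFP+ than in GFP- cells, with a median of -0.54 against 0.04. Over all probe sets too more were called lower than higher, 1804 against 827 and 1800 against 1261. Prrx1 fell by 1.91 ± 0.25 and Prrx2 fell by 2.04 ± 0.29 from GFP- to control GFP+ cells (limma adjusted p = 0.0022 and 0.0029), and both are homeobox genes of limb mesenchyme that are also among the mesenchyme markers above. Sox9, the chondrogenic factor, fell by 1.70 ± 0.32 (adjusted p = 0.0131), a call lost without GFP- replicate 1 (0.0517) or 2 (0.0527). Twist1, a basic helix-loop-helix factor, differed from GFP- cells by -1.12 ± 0.33 in control GFP+ cells (adjusted p = 0.0772) and by -1.5 ± 0.33 in PAX3-FKHR GFP+ cells (adjusted p = 0.0219). The latter call was lost on leaving out PAX3-FKHR GFP+ replicate 1 (0.0704) or 2 (0.0992) or GFP- replicate 1 (0.0691) or 2 (0.0642).

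Foxc2, a forkhead factor of paraxial mesoderm, was the 1 listed factor called higher in control GFP+ cells. It gave 7.30, 7.47 and 7.47 in control GFP+ cells, 5.27, 5.92 and 6.06 in PAX3-FKHR GFP+ cells and 5.47, 5.28 and 4.86 in GFP- cells. It rose by 2.21 ± 0.22 from GFP- to control GFP+ cells (limma adjusted p = 4.17e-04) and fell by 1.66 ± 0.22 from control to PAX3-FKHR GFP+ cells (adjusted p = 0.0092). It was the only one of the 14 called between the GFP+ groups. Sim2, whose product has been described as a repressor of Snai2, gave 7.99, 7.91 and 8.82 in control GFP+ cells, 5.85, 6.81 and 7.08 in PAX3-FKHR GFP+ cells and 3.99, 4.15 and 3.64 in GFP- cells. It rose by 4.31 ± 0.33 from GFP- to control GFP+ cells (adjusted p = 8.43e-05). The difference of -1.66 between the GFP+ groups was not called (adjusted p = 0.0709). Sim2 was called lower there when those 6 arrays were blocked by replicate number (limma adjusted p = 0.0119) and with array weights (limma adjusted p = 0.0273). The local pooled error test called it lower too (adjusted p = 0.0145).

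Among 28 genes of epithelial junctions and keratins, 1 was higher and 3 were lower in control GFP+ cells relative to GFP- cells (median difference -0.31) and 1 higher and 5 lower in PAX3-FKHR GFP+ cells (median -0.31). Of all probe sets, 1.84% were called higher and 4.01% lower in the first comparison, and 2.8% and 4% in the second. Cldn7, with the E-boxes shown above, fell by 1.31 ± 0.28 from GFP- to control GFP+ cells (limma adjusted p = 0.0214) and fell by 1.44 ± 0.28 to PAX3-FKHR GFP+ cells (adjusted p = 0.0117). Krt18, also shown above, fell by 1.26 ± 0.26 (adjusted p = 0.0153) and Krt8, which encodes its keratin partner, fell by 1.55 ± 0.34 (adjusted p = 0.0200) from GFP- to PAX3-FKHR GFP+ cells. The Krt8 probe set carries the suffix x described for Snai2. Neither keratin was called in control GFP+ against GFP- cells. The calls of Cldn7, Krt18 and Krt8 were each lost on leaving out some single arrays. Over all probe sets, calls lower in PAX3-FKHR GFP+ than in GFP- cells also went from 1800 to 838 without PAX3-FKHR GFP+ replicate 2. Leaving out PAX3-FKHR GFP+ replicate 2 raised the adjusted p to 0.060 for Cldn7, 0.0760 for Krt18 and 0.0935 for Krt8, and leaving out replicate 3 raised it to 0.0503, 0.0563 and 0.0744. Without GFP- replicate 2 or 3, Krt18 was at 0.0610 or 0.0513 and Krt8 at 0.0808 or 0.0617. The Cldn7 call in control GFP+ cells was lost on leaving out replicate 1 (0.0614) or 3 (0.0561) of that group, or replicate 2 (0.0724) or 3 (0.0570) of GFP- cells. Marveld2, a junction gene of the list that also holds the E-box, lay 0.77 higher in PAX3-FKHR GFP+ than in GFP- cells. It was not called in the main fit but was after the filter on low values (limma adjusted p = 0.0423). Whether levels follow the motif was not tested.

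The junction gene Pkp2, which encodes the desmosomal protein plakophilin-2, went the other way from Cldn7 and the keratins. It gave 6.42, 6.42 and 6.21 in control GFP+ cells, 8.07, 8.30 and 8.20 in PAX3-FKHR GFP+ cells and 3.42, 3.83 and 4.75 in GFP- cells. It rose by 2.36 ± 0.28 from GFP- to control GFP+ cells (limma adjusted p = 0.0010). It rose by 1.84 ± 0.28 from control to PAX3-FKHR GFP+ cells (adjusted p = 0.0165), a call lost on leaving out any PAX3-FKHR GFP+ array (0.0624, 0.0888 and 0.0746 for replicates 1, 2 and 3) or replicate 1 (0.0678) or 3 (0.0634) of control GFP+. Of 12 factors that maintain the epithelial state, 1 was called lower in control GFP+ cells, the splicing regulator Esrp1, which fell by 1.92 ± 0.36 from GFP- cells (adjusted p = 0.0127). Of all probe sets 4.01% were called lower in that comparison. Between the GFP+ groups 0 of the 12 were called, beside 0.54% of all probe sets, 0 had an unadjusted p under 0.05 and the local pooled error test called 0.

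The 24 mesenchymal genes split, with 3 higher and 9 lower in control GFP+ and 4 higher and 8 lower in PAX3-FKHR GFP+ than in GFP- cells. Beside Vim, Postn, which encodes the matrix protein periostin, rose by 2.98 ± 0.40 from GFP- to control GFP+ cells (limma adjusted p = 0.0022). The receptor gene Pdgfra fell by 1.69 ± 0.21 (adjusted p = 0.0014) and Pdgfrb fell by 1.09 ± 0.18 (adjusted p = 0.0063), and Pdgfra is also one of the mesenchyme markers. None of the 24 was called between the GFP+ groups, where 5 had an unadjusted p under 0.05 and the local pooled error test called 1. With those 6 arrays blocked by replicate number, 2 of the 24 were called: Tnc, which encodes the matrix protein tenascin-C, at 1.58 (adjusted p = 0.0218, against 0.10 unblocked) and Postn at -0.86 (adjusted p = 0.0385, against 0.714). Without the block, Tnc was also called higher with array weights (limma adjusted p = 0.0167) and by the local pooled error test (adjusted p = 0.0092).

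**Figure D4:**
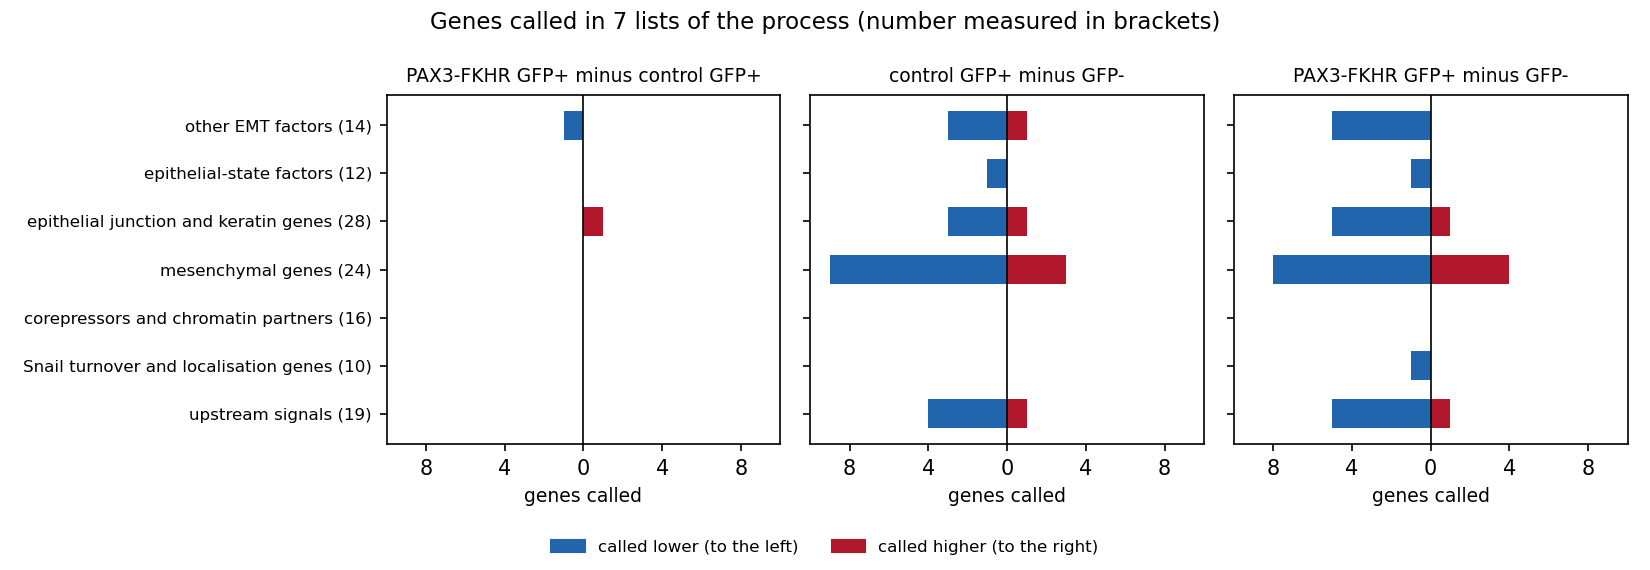
Numbers of genes called lower (bars to the left) and higher (bars to the right) in 7 lists of the EMT process in the 3 comparisons, with the number of measured genes after each list name. Mesenchymal genes had the most calls, 3 higher and 9 lower in control GFP+ against GFP- cells, and corepressors had none in any comparison. Of all probe sets 0.54%, 5.84% and 6.8% were called in the 3 panels from left to right.

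Transcripts of the proteins through which Snail and Zeb factors repress passed the test in no comparison. Of 16 measured corepressors and chromatin partners, among them Ctbp2, Hdac1, Hdac2, Ezh2 and Suz12, limma called 0 in each comparison. Over all probe sets it called 0.54% for PAX3-FKHR against control, 5.84% for control against GFP- and 6.8% for PAX3-FKHR against GFP-. With shares this small, 0 of 16 is not read as a result about these genes. At an unadjusted p under 0.05 there were 1, 2 and 2 for PAX3-FKHR against control, control against GFP- and PAX3-FKHR against GFP-, and the local pooled error test called 0, 0 and 1. Of 10 genes that control the stability or location of Snail protein, 1 was called, Loxl3, a lysyl oxidase family member, which fell by 0.72 ± 0.17 from GFP- to PAX3-FKHR GFP+ cells (limma adjusted p = 0.0309). That call was lost without any PAX3-FKHR GFP+ replicate (adjusted p = 0.0646, 0.0869 and 0.112 without replicates 1, 2 and 3) or without GFP- replicate 1 (0.107) or 2 (0.0832). Gsk3b and Btrc, the kinase and the ubiquitin ligase subunit that mark Snail for degradation, differed by 0.44 ± 0.30 and 0.26 ± 0.20 in that comparison and were not called.

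Of 19 upstream signals, 1 was higher and 4 lower in control GFP+ and 1 higher and 5 lower in PAX3-FKHR GFP+ than in GFP- cells. Of all probe sets, 1.84% and 4.01% were called higher and lower in control GFP+ cells, and 2.8% and 4% in PAX3-FKHR GFP+ cells. The gene called higher in both was Sim2. The ligand gene Bmp4 fell by 1.5 ± 0.22 from GFP- to control GFP+ cells (limma adjusted p = 0.0034) and Bmp7 fell by 1.17 ± 0.16 (adjusted p = 0.0022). The Notch ligand Jag1 fell by 1.73 ± 0.27 from GFP- to PAX3-FKHR GFP+ cells (adjusted p = 0.0036). None of the 19 was called between the GFP+ groups, where 3 had an unadjusted p under 0.05 and the local pooled error test called 1.

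Markers of other cell types moved along with these values in some groups but not in all. Within GFP- cells, the array with the highest Zeb2 (replicate 3, 6.10) also had the highest mean over 15 endothelial markers (6.18, against 5.20 on replicate 1 and 5.83 on replicate 2), over 14 blood and macrophage markers (7.30, against 6.0 and 6.91) and over 13 limb ectoderm markers (6.97, against 5.85 and 6.57). Cdh1 was highest on that array too, but Cdh1, Krt8 and Krt18 are themselves among the ectoderm markers, so this likeness is partly built in. Alas2, a gene of red cell precursors, was at 11.40 there, at 9.48 on replicate 2 and at 4.81 on replicate 1. In control GFP+ cells Zeb2 was lowest on replicate 2 (7.35). Endothelial (6.86), blood and macrophage (6.30) and ectoderm (5.58) means were highest on that control array. In PAX3-FKHR GFP+ cells Zeb2 was highest on replicate 2 (8.28), where endothelial (6.13) and blood (6.47) means were highest and the ectoderm mean (5.44) was lowest. Between groups, 0 of the 15 endothelial markers were called by limma in control GFP+ against GFP- cells, where 4 had an unadjusted p under 0.05 and the local pooled error test called 1. All 15 lay above 0 in that comparison, the direction of Zeb2, with a median of 0.30 against 0.06 over all probe sets. In PAX3-FKHR GFP+ against GFP- cells their median was 0.04, with 10 above 0 and 5 below. Between the GFP+ groups it was -0.39, with 13 of 15 below 0, where Zeb2 differed by 0.33, not called. Blood and macrophage markers had a median of -1.15 in control GFP+ against GFP- cells, with 12 of 14 below 0 and 1 called lower. Cldn5, an endothelial claudin, had a difference of 1.36 between control GFP+ and GFP- cells (limma adjusted p = 0.0599). It was called with array weights (0.0275), after the filter on low values (0.046) and with all 9 arrays blocked by replicate number (0.0200). That block includes GFP- arrays, which were not taken as paired. Of the 13 ectoderm markers 4 were lower in control GFP+ cells and 0 higher. The part of these cells in the values of Zeb2, Cdh1 and the keratins was not tested.

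Against GFP- cells, most neural crest and neuron markers moved in the direction of the Zeb genes. Of 10 neural crest and glia markers 5 were higher and 1 was lower in control GFP+ cells relative to GFP- cells, and 4 higher and 1 lower in PAX3-FKHR GFP+ cells. Between PAX3-FKHR and control GFP+ cells 0 of the 10 were called, with a median of -0.44 and 7 below 0. Zeb1 and Zeb2 differed there by 0.15 and 0.33 and were not called either. Their mean level was 6.10 to 7.35 in control GFP+, 5.99 to 7.07 in PAX3-FKHR GFP+ and 5.08 to 5.29 in GFP- arrays. Sox10, a defining factor of migrating crest, gave 8.43, 8.77 and 7.63 in control GFP+ cells, 7.46, 8.33 and 7.33 in PAX3-FKHR GFP+ cells and 6.32, 6.45 and 6.18 in GFP- cells. Of 15 neuron markers 4 were higher in control GFP+ and 6 in PAX3-FKHR GFP+ cells than in GFP- cells, and 0 lower in either. By the study's account crest cells do not enter the limb buds and should be absent from these samples. It reports crest markers there to a minor extent, as a probable sign of some somitic material. Zeb2 and Zeb1 are expressed in neural crest as well as in muscle progenitors, and the part of crest or nerve cells in their levels was not tested.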

How the data were processed

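Total RNA of sorted forelimb bud cells was amplified in 2 cycles and hybridised to Affymetrix whole-genome mouse arrays. The deposited table holds log2 values that the authors made with RMA, a background correction, quantile normalization and probe set summary, whose version is not given in the sources used here. Absent calls were not used here, so the filter that the study based on them was left out. All 9 value columns matched a sample, and 64 array control probe sets were left out. Genes were named from the platform annotation: 34945 probe sets had 1 symbol, 932 several and 9160 none.

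All 9 arrays entered 1 fit in limma 3.58.1 under R 4.3.3, whose prior variance followed the mean level, and 3 contrasts were drawn from it. P-values were adjusted by Benjamini-Hochberg over all 45037 probe sets, and the thresholds were those of the methods (0.05 and a log2 fold change of 0.5). The study's own test, local pooled error, was rebuilt from its description as an alternative. The other alternatives were renormalization, no trend, array weights, the replicate number as a block, the 6 compared arrays alone, other fold thresholds, a filter on low values and leaving out each array. The scripts were tested on simulated data. Precision is set by the number of arrays.

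The members and gene lists were chosen with earlier results of these data known. The text names all probe sets of the 4 genes, Pax3, 6 chosen genes, in each list and comparison the 4 genes at most whose adjusted p was smallest, and the 3 genes nearest to each factor. A few further genes were named after their values were seen. Some listed genes had no probe set with 1 symbol. E-boxes were searched on both strands of RefSeq promoter windows.

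Replicate numbers come from the sample titles, which do not say what they share. Deviations from the group means of same-numbered PAX3-FKHR and control GFP+ arrays correlated (r = 0.16, 0.47 and 0.29), so that these numbers were taken to pair the arrays. With same-numbered GFP- arrays the correlations were between -0.29 and 0.15, and these were not taken as paired. Differently numbered arrays reached 0.32, for PAX3-FKHR GFP+ replicate 3 and GFP- replicate 1. The pairing was thus inferred from these same data, and calls made only with the block depend on it.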

Additional observations from a re-analysis of the deposited data

How the results depend on the processing

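Over 17 alternative settings for each main probe set in each comparison, no difference changed direction. Zeb2 stayed called against GFP- cells in every setting. For Zeb1, the control GFP+ difference from GFP- cells of 0.81 was not called when the 6 arrays compared were blocked by replicate number (limma adjusted p = 0.0637). It also fell short of a log2 fold change of 1 (0.81), as did the PAX3-FKHR GFP+ difference (0.96). Same-numbered GFP- arrays were not taken as paired, so blocks that include GFP- arrays have no such basis. Snai2, at -0.75 and just short of the threshold between control GFP+ and GFP- cells, was called after a further quantile normalization (-0.73), with array weights (-0.89), after the filter on low values (-0.75) and with the local pooled error test, which compares medians (-1.0). On leaving out single arrays it ranged from -0.93 to -0.64. The cause was not tested, apart from the filter, which tests fewer probe sets. No setting made a main probe set of the 4 genes differ between the GFP+ groups.

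Between those groups the replicate numbers were only taken to pair the arrays. The block on the 6 arrays raised the calls over all probe sets from 178 to 281 higher and from 64 to 95 lower. The values of Snai1 (-0.27), Snai2 (0.34), Zeb1 (0.15) and Zeb2 (0.33) stayed uncalled. Array weights gave 337 and 151 calls there, the 6 arrays alone 82 and 22, the local pooled error test 268 higher, and leaving out 1 array 73 to 133 higher and 25 to 59 lower. Against GFP- cells, calls higher in control GFP+ cells went from 827 to 1254 with array weights and to 394 with the block on 6 arrays. At a log2 fold change of 1 they were 368 higher and 1101 lower, and for PAX3-FKHR GFP+ cells 642 and 1005. The Zeb1 probe set that opposed the main one (1446127_at, -1.42) was called with the block over all 9 arrays (limma adjusted p = 0.0269), which includes the unpaired GFP- arrays.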
